A study of Mus musculus with 41 samples.

Results

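The comparison concerned RNA-seq of mouse brainstem tumors that expressed either a tagged histone H3.3 whose lysine 27 was replaced by methionine (K27M), or the same tagged histone without the change (WT-Tag). All tumor libraries whose labels name either allele were taken, 20 K27M and 9 WT-Tag tumors, 29 of the 41 libraries of the series. Both groups carried Nestin-creERT2, a tamoxifen-inducible Cre recombinase under the promoter of the neural progenitor gene Nestin, and both carried LSL-PDGFRαV544ins, a PDGF receptor allele switched on by Cre, and Trp53flox/flox, in which Cre deletes the p53 gene. They differed in 1 allele of H3f3a, H3f3aLSL-K27M-Tag/+ in the mutant group and H3f3aLSL-WT-Tag/+ in the control group, so the WT-Tag tumors are p53-floxed, PDGFRα-driven gliomas and not normal brain. The labels gave 11 female and 9 male K27M tumors and 6 female and 3 male WT-Tag tumors. The labels give no age, time of induction or litter, so p-values measure the spread between these tumors only. RNA came from pieces of frozen tissue, which hold tumor cells together with the brain cells around them, and tumors are named here by their number in the labels.

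Histone H3.3 K27M is the founding mutation of most diffuse gliomas of the pons and midline in children. Methionine at this position inhibits Polycomb repressive complex 2, the enzyme that methylates lysine 27 of histone H3, so that this repressive mark is lost over most of the genome while it is kept or gained at a subset of CpG-rich sites. Classic Polycomb targets are silent developmental regulators: the HOX clusters, which set position along the body axis, and transcription factors of the forkhead, LIM-homeobox and AP-2 families. In hindbrain and brainstem the first HOX paralog groups are normally expressed, whereas the last groups belong to the posterior spinal cord, limbs and tail.

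Expression is in FPKM as deposited by the authors, that is, fragment counts scaled for transcript length and for sequencing depth. Relative sequencing depth, recovered from the smallest steps in the FPKM values, was 0.396 to 1.66 in K27M tumors with a median of 0.849, and 0.772 to 1.61 in WT-Tag tumors with a median of 1.17, so the WT-Tag libraries were on the whole deeper. H3f3a, which encodes H3.3 itself, was at 34.0 to 101 FPKM in K27M tumors (median 56.0) and 43.7 to 111 in WT-Tag tumors (median 60.0), a log2 difference of -0.09 ± 0.17 (SE; limma, adjusted p = 0.92). This does not check the mutation, since FPKM per gene does not tell the alleles apart. Pdgfra was at a median of 114 FPKM in K27M against 126 in WT-Tag tumors (adjusted p = 0.91), and Trp53 was at a median of 2.39 and 2.45 (adjusted p = 0.95). Markers matched the brainstem label only in part. Hoxa2, a hindbrain gene, was between 1.68 and 12.8 FPKM in all 29 tumors. Hoxb2, another hindbrain gene, was at 0 FPKM in K27M tumor 4. In WT-Tag tumors 8, 9 and 28 it was at 0.065, 0.009 and 0.045 FPKM. Olig2, a glial and glioma transcription factor that does not mark region, was between 9.03 and 120 FPKM. In 2 WT-Tag tumors sex-linked transcripts went against the labelled sex. Tumor 8, labelled female, had 0.031 FPKM of Xist, and tumor 9, labelled male, had 54.5 FPKM of Xist and 0.003 of the Y-linked Ddx3y. Results below are given without these 2 tumors where that changed a call.

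Among the 15360 genes that reached 1 FPKM in at least 9 tumors, 13 differed between the genotypes (limma on log2(FPKM + 1), adjusted p below 0.05), 7 higher and 6 lower in K27M tumors, which is 0.0846% of the genes tested. At an unadjusted p below 0.05 there were 546 genes higher and 558 lower. The plot of called genes shows the clearest of these by tumor.

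Asb4, a substrate-binding subunit of a ubiquitin ligase, had the highest difference of the 7 higher genes. It was at 1.71 to 37.1 FPKM in K27M tumors (median 7.23) and 0.145 to 2.62 in WT-Tag tumors (median 0.571), a log2 difference of 2.25 ± 0.31 (adjusted p = 0.0006). WT-Tag tumors 7 and 10 were the only ones of their group to reach the K27M range. Dct, the dopachrome tautomerase of melanin synthesis that is also expressed in neural progenitors, was at 0.644 to 14.7 FPKM in K27M tumors (median 3.77) and 0.10 to 2.28 in WT-Tag tumors (median 0.495). Its log2 difference was 1.59 ± 0.25 (adjusted p = 0.0025). WT-Tag tumor 11 was the only one of its group above 1 FPKM, and K27M tumor 23 the only one below it. Glycam1 and Ppp1r1a, an inhibitor subunit of protein phosphatase 1, are adjacent genes and were both higher. Glycam1 was at 0.114 to 7.07 FPKM in K27M tumors (median 2.98) against 0.098 to 1.65 in WT-Tag tumors (median 0.191), with a log2 difference of 1.47 ± 0.25 (adjusted p = 0.0046). Ppp1r1a was at 6.81 to 14.2 FPKM (median 10.4) against 1.61 to 8.07 (median 6.24), with a log2 difference of 0.82 ± 0.15 (adjusted p = 0.013). Pbx3, a cofactor of HOX proteins, had a median of 4.67 FPKM across K27M tumors and 2.11 in WT-Tag tumors (log2 difference 0.78 ± 0.13, adjusted p = 0.0042). The other higher genes were Ndn, an imprinted gene of neurons (median 87.8 FPKM against 38.9, adjusted p = 0.047), and 2810030E01Rik, named Skida1 by RefSeq (median 1.55 against 0.648, adjusted p = 0.0073). The call of Ndn was lost on leaving out any of 21 of the 29 tumors, with an adjusted p up to 0.16.

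The 6 lower genes held 3 regulators of development or their neighbors. En2 is an engrailed transcription factor of the midbrain-hindbrain boundary, the signaling center that separates midbrain from hindbrain in the embryo. It was at 0.054 to 4.6 FPKM in K27M tumors (median 0.822) and 1.14 to 6.43 in WT-Tag tumors (median 4.57), a log2 difference of -1.35 ± 0.23 (adjusted p = 0.0046). Cnpy1, which modulates FGF signaling at the same boundary and lies close to En2, was at 0.018 to 9.86 FPKM (median 0.823) against 0.280 to 19.3 (median 7.23), with a log2 difference of -1.85 ± 0.39 (adjusted p = 0.047). Its call was lost on leaving out any of 21 tumors (adjusted p up to 0.18), whereas that of En2 held in all 29 omissions. Foxf1a, a forkhead factor of the embryonic gut and lung mesenchyme, was at 0.249 to 3.67 FPKM (median 1.21) in K27M and 1.54 to 17.4 (median 7.25) in WT-Tag tumors. The log2 difference was -1.66 ± 0.28 (adjusted p = 0.0046), and WT-Tag tumor 28 had the lowest value of its group. The remaining 3 lower entries were long noncoding or predicted transcripts. G530011O06Rik and Gm15726 had medians of 1.85 against 3.89 FPKM and 0.765 against 1.85, and C230035I16Rik had 2.13 against 5.32, with adjusted p-values of 0.016, 0.032 and 0.044. These calls were lost on leaving out any of 4, 8 and 16 tumors. Without WT-Tag tumors 8 and 9, 8 of the 13 genes passed, and Ppp1r1a, 2810030E01Rik, Ndn, Cnpy1 and C230035I16Rik did not, with adjusted p-values of 0.10, 0.053, 0.36, 0.26 and 0.053. Among the 11 K27M and 6 WT-Tag tumors labelled female, 0 genes passed in limma and 1712 had an unadjusted p below 0.05; the adjusted p-values of the 13 genes were 0.13 to 0.29, and 1 of the low-expressed genes described next passed.

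**Figure D1:**
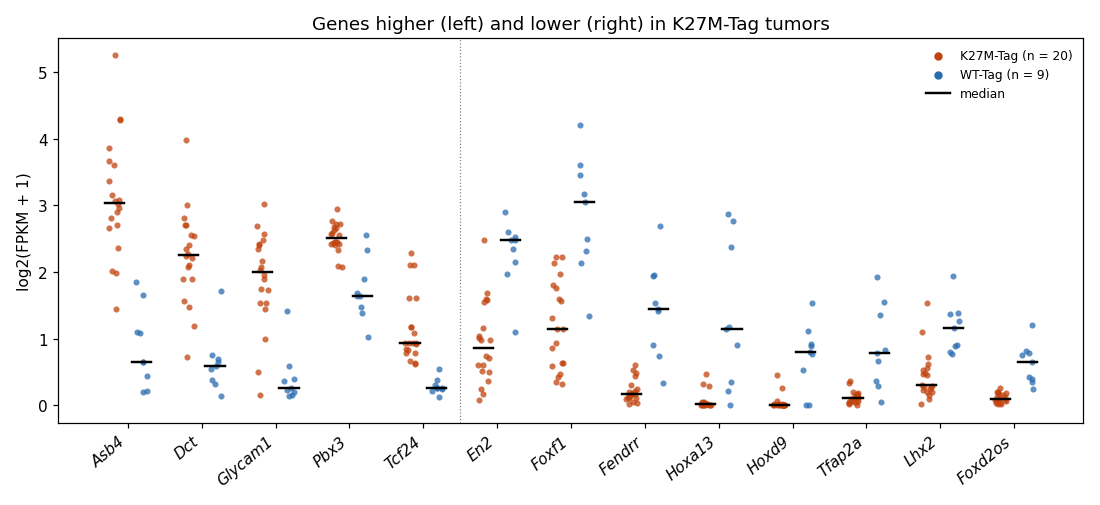
Each point is 1 tumor on the log2(FPKM + 1) scale, K27M-Tag left and WT-Tag right of each gene name, with bars at the group medians; genes left of the dotted line were higher and genes right of it lower in K27M-Tag tumors. Tcf24 in K27M-Tag tumors stays at or above 0.541 FPKM and lies above all WT-Tag tumors, which reach 0.455 FPKM.

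A separate test took in weakly expressed genes, those at 0.1 FPKM or more in at least 9 tumors. Of its 20689 genes, 28 passed (0.135%), and 5329 were low-expressed genes that the first comparison had left out. Of these, 12 passed, 1 higher and 11 lower in K27M tumors, which is 0.225% of the low-expressed genes. Some of the lower genes passed the filter mainly through the WT-Tag group, where they were high. Gm16989, Hoxd9 and 1700109F18Rik reached 0.1 FPKM in 2, 2 and 3 of 20 K27M tumors and each in 7 of 9 WT-Tag tumors. Lhx2 and Gm17593, in contrast, reached it in 18 and 20 K27M tumors and in all 9 WT-Tag tumors. The counts by direction carry that limit. The 11 lower genes included transcription factor genes of embryonic patterning, among them Hoxa13, Hoxd9, Lhx2 and Tfap2a, and 3 noncoding transcripts beside such genes. At an unadjusted p below 0.05, 154 low-expressed genes were higher and 269 lower.

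The low-expressed gene called higher was Gm10567, named Tcf24 by RefSeq, a basic helix-loop-helix factor gene. It was the 1 gene of 20689 (0.00483%) at which every K27M tumor lay above every WT-Tag tumor. It was at 0.541 to 3.84 FPKM in K27M tumors (median 0.904) and 0.088 to 0.455 in WT-Tag tumors (median 0.193), a log2 difference of 0.86 ± 0.17 (adjusted p = 0.017). Without WT-Tag tumors 8 and 9 the adjusted p of Gm10567 was 0.055, and no low-expressed gene was then called higher.

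Hoxa13, the last gene of the HOXA cluster, was at 0 to 0.379 FPKM in K27M tumors (median 0.0105) and 0 to 6.28 in WT-Tag tumors (median 1.21), a log2 difference of -1.25 ± 0.23 (adjusted p = 0.011). WT-Tag tumors 26, 27 and 29 were at 4.20 FPKM or more and tumor 9 was at 0, so the WT-Tag group was itself split. Hoxd9 was at 0 to 0.375 FPKM (median 0) against 0 to 1.90 (median 0.739), with a log2 difference of -0.69 ± 0.11 (adjusted p = 0.0022), and WT-Tag tumors 8 and 28 were at 0. The noncoding 1700109F18Rik (Hoxd3os1) of the HOXD cluster had medians of 0 and 0.915 FPKM (adjusted p = 0.038), a call lost on leaving out any of 24 tumors. Tfap2a, an AP-2 factor of neural crest and surface ectoderm, was at 0 to 0.279 FPKM (median 0.082) in K27M and 0.037 to 2.78 (median 0.717) in WT-Tag tumors, a log2 difference of -0.74 ± 0.13 (adjusted p = 0.0074). Lhx2, a LIM-homeobox factor of forebrain and eye, was at 0.016 to 1.89 FPKM (median 0.228) against 0.708 to 2.83 (median 1.23), a log2 difference of -0.72 ± 0.14 (adjusted p = 0.017). Leaving out WT-Tag tumor 10 took Lhx2 to an adjusted p of 0.055, and leaving out tumors 8 and 9 took it to 0.11, with Gm17593 and Gm16989 lost as well.

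The noncoding RNA Fendrr (1110050K14Rik in the deposited table) is transcribed beside Foxf1a, and both were lower. Fendrr was at 0.007 to 0.518 FPKM in K27M tumors (median 0.121) and 0.261 to 5.44 in WT-Tag tumors (median 1.71), a log2 difference of -1.23 ± 0.16 (adjusted p = 0.0002). Foxd2os (9130206I24Rik), beside the forkhead gene Foxd2, was at 0.013 to 0.192 FPKM (median 0.0615) against 0.180 to 1.31 (median 0.568), with an adjusted p of 0.0002. Foxd2 itself had medians of 0.046 and 0.259 FPKM and did not pass (adjusted p = 0.072). The last 3 were the unnamed models Gm17593, Gm17017 and Gm16989, with medians of 0.309, 0.084 and 0.020 FPKM in K27M tumors against 0.969, 0.508 and 0.306. No source used here says whether the counting used strand, so the shares of overlapping or antisense neighbors such as Fendrr and Foxf1a are uncertain.

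Promoter sequences are shown for the 5 most CpG-rich of the 9 matched lower genes (Hoxa13, Hoxd9, Fendrr, Lhx2 and Tfap2a), for 1 of the 4 others (Cnpy1) and for 3 of the higher genes (Asb4, Dct and Ndn), to let the CpG content of the genes that moved in each direction be read directly. RefSeq's promoter table matched 13 of the 25 called genes. Each sequence is the 250 bases before the most upstream start, 5′ to 3′ in the direction of the gene, on build GRCm38.p6, with each CpG dinucleotide (CG, the same letters on both strands) in capitals.
Hoxa13 (chr6:52260881-52261130, minus strand): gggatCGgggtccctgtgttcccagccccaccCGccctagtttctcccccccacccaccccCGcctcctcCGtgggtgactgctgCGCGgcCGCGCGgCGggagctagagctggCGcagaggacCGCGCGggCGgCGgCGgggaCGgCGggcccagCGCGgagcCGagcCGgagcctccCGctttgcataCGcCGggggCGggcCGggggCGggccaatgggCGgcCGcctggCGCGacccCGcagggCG
Hoxd9 (chr2:74697513-74697762, plus strand): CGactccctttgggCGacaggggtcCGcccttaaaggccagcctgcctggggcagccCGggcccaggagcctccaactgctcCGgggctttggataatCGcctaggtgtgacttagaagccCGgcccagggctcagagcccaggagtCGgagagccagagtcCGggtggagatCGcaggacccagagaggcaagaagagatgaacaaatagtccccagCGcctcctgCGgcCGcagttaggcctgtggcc
Fendrr (chr8:121083111-121083360, minus strand): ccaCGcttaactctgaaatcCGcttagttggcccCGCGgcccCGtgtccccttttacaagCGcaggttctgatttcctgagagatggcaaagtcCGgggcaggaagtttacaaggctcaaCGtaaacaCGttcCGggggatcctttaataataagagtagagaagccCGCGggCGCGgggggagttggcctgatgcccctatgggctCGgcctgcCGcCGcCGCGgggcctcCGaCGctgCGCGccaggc
Lhx2 (chr2:38339031-38339280, plus strand): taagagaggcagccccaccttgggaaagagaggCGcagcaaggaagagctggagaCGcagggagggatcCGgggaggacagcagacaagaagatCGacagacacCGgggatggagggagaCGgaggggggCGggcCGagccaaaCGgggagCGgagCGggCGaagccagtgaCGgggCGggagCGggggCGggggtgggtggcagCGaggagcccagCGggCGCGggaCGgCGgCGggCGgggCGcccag
Tfap2a (chr13:40734921-40735170, minus strand): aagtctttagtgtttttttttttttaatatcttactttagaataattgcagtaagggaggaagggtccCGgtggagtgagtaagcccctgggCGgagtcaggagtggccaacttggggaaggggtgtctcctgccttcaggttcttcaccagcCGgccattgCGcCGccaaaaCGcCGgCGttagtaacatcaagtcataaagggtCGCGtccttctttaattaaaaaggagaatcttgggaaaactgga
Cnpy1 (chr5:28245789-28246038, minus strand): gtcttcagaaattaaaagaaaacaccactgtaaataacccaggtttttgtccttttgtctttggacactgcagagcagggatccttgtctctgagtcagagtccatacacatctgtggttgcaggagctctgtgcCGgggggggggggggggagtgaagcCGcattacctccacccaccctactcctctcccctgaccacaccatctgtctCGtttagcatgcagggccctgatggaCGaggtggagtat
Asb4 (chr6:5383136-5383385, plus strand): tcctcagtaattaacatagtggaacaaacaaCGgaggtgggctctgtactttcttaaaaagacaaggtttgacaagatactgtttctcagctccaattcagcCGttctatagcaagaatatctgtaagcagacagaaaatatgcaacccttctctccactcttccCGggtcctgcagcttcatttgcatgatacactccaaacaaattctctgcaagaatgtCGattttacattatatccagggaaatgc
Dct (chr14:118052247-118052496, minus strand): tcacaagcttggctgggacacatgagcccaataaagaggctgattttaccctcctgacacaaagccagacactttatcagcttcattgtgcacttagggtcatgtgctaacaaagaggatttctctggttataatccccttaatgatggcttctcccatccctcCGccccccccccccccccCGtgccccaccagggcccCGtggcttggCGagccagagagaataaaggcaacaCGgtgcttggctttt
Ndn (chr7:62348027-62348276, plus strand): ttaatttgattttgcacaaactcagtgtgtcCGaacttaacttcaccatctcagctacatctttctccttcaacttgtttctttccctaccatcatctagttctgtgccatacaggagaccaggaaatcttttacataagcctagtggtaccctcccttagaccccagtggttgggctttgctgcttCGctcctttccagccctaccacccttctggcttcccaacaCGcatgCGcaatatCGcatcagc
Hoxa13 had 35 CpG dinucleotides in this window, Lhx2 25, Fendrr 23, Hoxd9 13 and Tfap2a 10. Asb4 had 4, and Dct and Ndn had 5 each. Of 27025 promoters of the same length, 2.77% held as many as Hoxa13, 10.3% as many as Lhx2, 13% as many as Fendrr, 31.8% as many as Hoxd9, 38.2% as many as Tfap2a, 55.5% as many as Dct and 61.9% as many as Asb4. The median over all promoters was 6, the median of the 9 matched lower genes was 10 with a range from 3 to 35, and the 4 matched higher genes had 0 to 5. The 4 other lower genes were no richer in CpG than the higher ones: Cnpy1 and Hoxd3os1 had 4, and G530011O06Rik and C230035I16Rik had 3.

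HOX genes, read along their clusters, had mostly negative differences. Of the 39 HOX genes in the table, 23 were tested in the wider comparison. Of these, 20 had a negative log2 difference, as did 10799 of all 20689 genes. The median was -0.20 against -0.01 over all genes tested. Hoxa13 and Hoxd9 passed; at an unadjusted p below 0.05, 7 HOX genes were lower and 0 higher, where 4.01% of all genes were lower and 3.35% higher. The 11 tested genes of paralog groups 1 to 4 included 8 with a negative difference and 1 lower at an unadjusted p below 0.05. All 10 tested genes of groups 5 to 8 had a negative difference, though at Hoxb5 and Hoxb8 it was only -0.03 and -0.005. Of the 10, 4 were lower at an unadjusted p below 0.05. Among these 4, Hoxc6 reached 0.1 FPKM in 3 of 20 K27M tumors and in 6 of 9 WT-Tag tumors. Of the 16 genes of groups 9 to 13, only Hoxa13 and Hoxd9 were high enough to be tested. They reached 0.1 FPKM in 3 and 2 of 20 K27M tumors and in 8 and 7 of 9 WT-Tag tumors. Like Hoxc6, they thus passed the filter mainly through the WT-Tag group, and their direction says nothing of the other posterior genes. Hoxa13, Hoxd9 and Hoxc6 are among the 7 lower HOX genes counted above, so that count carries the same limit.

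The posterior genes stayed below 1 FPKM in every K27M tumor. No gene of paralog groups 9 to 13 reached 1 FPKM in any of the 20 K27M tumors, and the highest value was 0.802 FPKM, of Hoxb9 in tumor 24. For Hoxb9 the order was the reverse: it was at 0.1 FPKM or more in 4 of 20 K27M tumors and at most 0.071 in WT-Tag tumors. In WT-Tag tumors 6 of 9 had at least 1 such gene at 1 FPKM or more, with 6 in tumor 27, 4 in tumor 29, 3 in tumor 26, 2 in tumor 10 and 1 each in tumors 9 and 11. Their summed FPKM was 0.025 to 1.36 in K27M tumors (median 0.089) and 0.201 to 17.3 in WT-Tag tumors (median 2.89), so the groups overlapped through WT-Tag tumors 8 and 28. Hoxa9 reached 3.20, Hoxa10 2.95, Hoxc9 2.98 and Hoxc10 3.35 FPKM in single WT-Tag tumors, while none of these exceeded 0.105 in K27M tumors. These genes missed the filter because few tumors expressed them, and they carry no test.

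Hoxd8 had the lowest unadjusted p of the HOX genes that did not pass. It was at 0 to 10.3 FPKM in K27M tumors (median 0.0655) and 0.011 to 8.06 in WT-Tag tumors (median 5.64), a log2 difference of -1.77 ± 0.41 (adjusted p = 0.10 in the first comparison and 0.083 in the wider one). Of the WT-Tag tumors 7 of 9 were above 1 FPKM, all but tumors 8 and 28, and of the K27M tumors 3 of 20 were, tumors 5, 22 and 24. Hoxa6 and Hoxa7, in the middle of the HOXA cluster, had medians of 1.00 and 1.41 FPKM across K27M tumors and 4.21 and 6.20 in WT-Tag tumors, with adjusted p-values of 0.59 and 0.45 in the wider comparison. The anterior genes overlapped throughout. Hoxa2 had medians of 2.90 and 2.98 FPKM, Hoxb2 of 1.71 and 1.41, and the summed FPKM of paralog groups 1 to 4 had medians of 14.3 and 13.7.

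**Figure D2:**
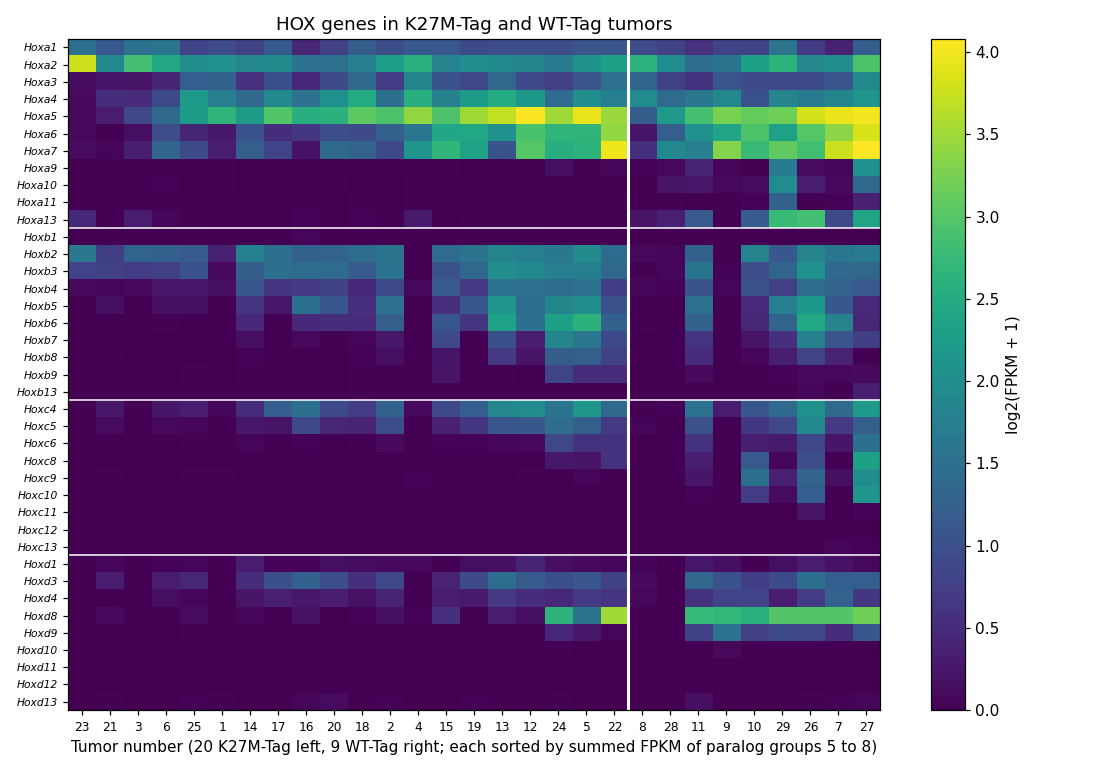
Rows are the 39 HOX genes by cluster (A to D, from anterior to posterior) and columns are tumors, 20 K27M-Tag left and 9 WT-Tag right of the white line, each group sorted by the summed FPKM of paralog groups 5 to 8; color is log2(FPKM + 1). Both groups vary in the middle of the clusters, and values for groups 9 to 13 stay below 1 FPKM in all K27M-Tag tumors.

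Among 12 genes of the midbrain-hindbrain boundary, 10 were tested in the wider comparison, where 0.135% of all genes passed. The close neighbors En2 and Cnpy1 were the 2 that passed. Of the 10, 4 were lower and 1 higher at an unadjusted p below 0.05. En1, the paralog of En2, had medians of 0.378 FPKM in K27M against 1.73 in WT-Tag tumors (log2 difference -0.72 ± 0.19, adjusted p = 0.18 there), and the list as a whole had 5 positive and 5 negative differences. Of 20 forebrain transcription factors only 5 could be tested, and Lhx2 was the single call. Of 72 transcription factors of non-neural embryonic tissues, 38 were tested and 3 passed, all lower, Foxf1a and Tfap2a among them. At an unadjusted p below 0.05, 13 of these were lower and 4 higher, beside 4.01% and 3.35% of all genes of the wider comparison. The list level, the mean log2(FPKM + 1) over its members, was 0.27 to 0.39 in K27M tumors and 0.37 to 0.58 in WT-Tag tumors, so the groups met only at their edges.

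The remaining developmental lists did not lean the same way, and their counts at an unadjusted p below 0.05 are read against 3.35% of all genes higher and 4.01% lower. Of 52 transcription factors of brainstem and spinal cord, 35 were tested and none passed in the limma fit; 6 were higher and 2 lower at an unadjusted p below 0.05, with a median log2 difference of 0.08. Irx2 had medians of 7.40 FPKM in K27M against 4.57 in WT-Tag tumors (log2 difference 0.67 ± 0.17, adjusted p = 0.15 there) and Prdm8, a neuronal repressor, had 1.17 and 0.276 (0.62 ± 0.18, adjusted p = 0.25). Among 14 neural crest and melanocyte genes, Dct was the 1 call of 11 tested. The melanocyte regulator Mitf had medians of 2.89 and 2.66 FPKM (adjusted p = 0.96 in the first comparison), and the pigment enzyme genes Tyr and Tyrp1 were at most 0.058 and 0.270 FPKM in any tumor. Of 50 secreted signals of the WNT, BMP, FGF and hedgehog pathways and their antagonists, 40 were tested; 32 had a positive difference, 2 were higher at an unadjusted p below 0.05, and none passed. Of 21 PRC2 and PRC1 subunit genes, 21 were tested, none passed and 2 were lower at an unadjusted p below 0.05. Ezh2, the PRC2 methyltransferase, had medians of 4.41 and 5.27 FPKM (adjusted p = 0.87 in the first comparison). Cdkn2a, which encodes p16 and p19ARF, was at 4.41 to 71.7 FPKM in K27M tumors (median 22.9) and 11.1 to 107 in WT-Tag tumors (median 41.7), a log2 difference of -0.91 ± 0.39 (adjusted p = 0.64 in the first comparison).

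Depth moved with genotype, and the direction of the weak signals moved with expression level. Of genes with a mean between 0.3 and 1 FPKM, 5.77% were lower and 3.22% higher in K27M tumors at an unadjusted p below 0.05. Of genes at 30 FPKM and over, 2.12% were lower and 3.12% higher. With relative depth as a term, the shares between 0.3 and 1 FPKM were 3.46% lower and 2.83% higher, and 7 of the 12 low-expressed calls held, among them Hoxa13, Hoxd9, Fendrr, Foxd2os, Gm17017 and Gm10567. Lhx2, Tfap2a, Hoxd3os1, Gm17593 and Gm16989 did not hold, with adjusted p-values from 0.084 to 0.25. Of the 13 calls of the first comparison, 9 held with the depth term, and Ndn, Cnpy1, C230035I16Rik and Gm15726 did not.

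Genes of normal brain cells varied widely between tumors of both groups. Neuron markers had a list level of 2.13 to 5.23 in K27M tumors (median 4.48) and 1.88 to 4.74 in WT-Tag tumors (median 3.86). Nefl, the light neurofilament, ranged from 1.70 to 275 FPKM across K27M tumors, and the WT-Tag range was 2.49 to 144. Tumors with a neuron level of 3.04 or less, against 3.59 or more in all others, were K27M 1, 3, 4, 14, 15 and 23 and WT-Tag 8, 9 and 28. In bulk tissue, fewer cells of a type and less RNA per cell cannot be told apart.

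Most genes of the neuron and glial lists had positive differences, and none passed in the limma fit. All 20 neuron genes and all 15 mature oligodendrocyte genes had positive log2 differences, with medians of 0.50 and 0.55 against -0.01 over all genes, and 0 of 20 and 5 of 15 were higher at an unadjusted p below 0.05, beside 3.35% of all genes. The myelin genes Mag, Mog, Cnp and Mbp were among the 5. Mag was at 51.3 to 228 FPKM in K27M tumors (median 127) and 17.8 to 216 in WT-Tag tumors (median 37.2), a log2 difference of 1.17 (adjusted p = 0.21). Astrocyte genes had 14 of 15 positive differences with a median of 0.37, and S100b was among them with medians of 142 and 96.8 FPKM (adjusted p = 0.46). The difference between the group medians of the list level was 0.99 for mature oligodendrocytes and 0.62 for neurons. Without WT-Tag tumors 8 and 9 these were 0.48 and 0.60, and with the median over the list members in place of the mean they were 0.85 and 0.93, so their order turned in both. Oligodendrocyte precursor genes had 10 of 15 positive differences with a median of 0.32.

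Microglia and macrophage genes had the opposite sign, with 3 of 19 positive differences and a median of -0.14. C1qa and C1qb, complement genes of microglia, had medians of 144 and 75.3 FPKM across K27M tumors and 155 and 102 in WT-Tag tumors, and no gene of the list had an unadjusted p below 0.05. Proliferation genes had a median of -0.02, with a list level of 1.92 to 4.41 in K27M and 1.05 to 4.91 in WT-Tag tumors. Top2a had medians of 18.9 and 20.4 FPKM and Mki67 of 16 and 17.9. The endothelial list had 13 of 15 positive differences with a median of 0.09, and Ly6c1 had medians of 103 and 39.9 FPKM (adjusted p = 0.49). Lymphocyte genes were low, and 4 of 18 were tested, none with an unadjusted p below 0.05. Lck, a kinase of T cell receptor signaling, was at 0.6 to 8.23 FPKM in K27M tumors (median 1.43) and 0.204 to 7.56 in WT-Tag tumors (median 1.84), Trac reached 2.20 FPKM, and Cd3e, a subunit of the T cell receptor complex, was at most 0.231 FPKM. Ttr, the transthyretin gene of the choroid plexus, was high in single tumors, at 2617 FPKM in K27M tumor 13 and 122 in WT-Tag tumor 26 against medians of 1.32 and 0.709.

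The calls were also fitted with a list level as a term. With the neuron level, 12 genes were called in the first comparison, 11 of them among the 13, and all 12 low-expressed calls held. With the oligodendrocyte level, 9 of the 13 held and no other gene was added; Ndn, Ppp1r1a, Cnpy1 and C230035I16Rik were lost, with adjusted p-values of 0.27, 0.15, 0.23 and 0.27. Of the low-expressed calls, 8 of 12 held with that term, and Lhx2, Tfap2a, Gm17593 and Gm16989 were lost.

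**Figure D3:**
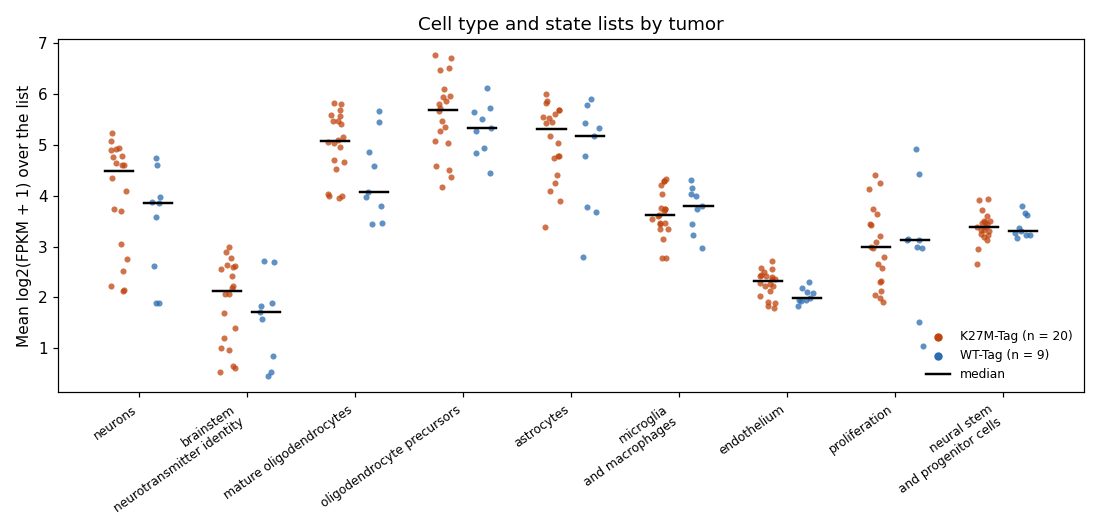
Each point is the mean log2(FPKM + 1) over a list of genes in 1 tumor, K27M-Tag left and WT-Tag right of each list, with bars at the group medians. The groups overlap in all 9 lists shown, and the medians for mature oligodendrocytes are 5.07 and 4.08.

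Across the 20 K27M tumors the brain cell lists moved together and against proliferation. The neuron level correlated with the astrocyte level (Pearson r = 0.89, Spearman rho = 0.87, permutation p = 1e-05 for each, the smallest that 100000 permutations can give) and with the mature oligodendrocyte level (r = 0.82, rho = 0.80, permutation p = 6e-05 and 5e-05). It was opposed to the proliferation level (r = -0.76, rho = -0.71, permutation p = 7e-05 and 0.00072), as was the oligodendrocyte level (r = -0.65, rho = -0.68, permutation p = 0.00195 and 0.00138). Microglia were weakly opposed to neurons (r = -0.49, rho = -0.49, permutation p = 0.027 and 0.032) and went with proliferation (r = 0.54, rho = 0.47, permutation p = 0.015 and 0.039). All 6 relations computed had an adjusted p below 0.05 (Benjamini-Hochberg over the 6), the highest being 0.027 for r and 0.039 for rho. Without the 2 tumors farthest from the median of the first measure, r was 0.92, 0.87, -0.76 and -0.50 for the first 4 relations. The microglia relations dropped to -0.30 with neurons and 0.39 with proliferation, and that of oligodendrocytes with proliferation went from -0.65 to -0.50. These relations rest in part on the tumors left out, whose omission also narrows the range of the first measure. List levels within a tumor share 1 library and its scaling, and the labels name no batch within which the relations could be repeated.

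**Figure D4:**
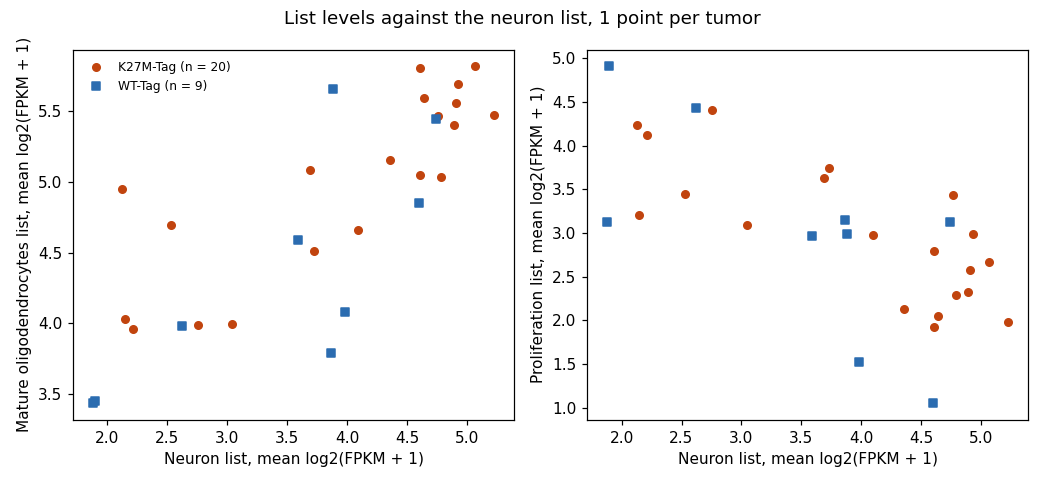
Mean log2(FPKM + 1) of the mature oligodendrocyte list (left) and the proliferation list (right) against that of the neuron list, 1 point per tumor, circles for K27M-Tag and squares for WT-Tag. Among K27M-Tag tumors the left panel rises (r = 0.82) and the right panel falls (r = -0.76).

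WT-Tag tumors were the more heterogeneous group for a small number of genes. In a test of spread on the absolute deviations of log2(FPKM + 1) from the group mean, 12 of 15360 genes (0.0781%) differed, all with the wider spread in WT-Tag tumors. At an unadjusted p below 0.05, 1239 genes (8.07%) were wider in WT-Tag and 156 (1.02%) wider in K27M tumors. Across genes, 58.1% had the larger SD in WT-Tag tumors, with a median SD of 0.39 against 0.37. The WT-Tag tumors did not share equally in this. Tumor 28 was the farthest from the group mean at 439 of the 1239 genes (35.4%), tumor 9 at 268 (21.6%) and tumor 8 at 142 (11.5%). Without tumors 8 and 9, with all K27M tumors kept, the median SD of the WT-Tag group was 0.37 and 47.9% of genes had the larger SD there. In the test of spread, 900 genes were then still wider in WT-Tag and 271 wider in K27M tumors at an unadjusted p below 0.05. The 13 genes that passed were all wider in WT-Tag tumors. Without tumor 28 alone the unadjusted counts were 824 and 200, and 5 genes passed.

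The called genes were of more than 1 kind: in some a single WT-Tag tumor stood apart, in others several did. Met, the receptor for hepatocyte growth factor, was at 1368 FPKM in WT-Tag tumor 9 and between 0.185 and 3.44 in all 28 others. Its neighbors on the chromosome, Capza2 and Cav1, were at 27 and 16.5 FPKM in that tumor, within their ranges of 26.5 to 43.2 and 7.35 to 31.9 in WT-Tag tumors. Hgf, the ligand of Met, was also wider in WT-Tag tumors, from 0.704 to 11.6 FPKM with the lowest value in tumor 9 and the highest in tumor 7. Tomm22, a mitochondrial import receptor, was at 178 FPKM in WT-Tag tumor 28 against 36.4 to 56.6 in K27M tumors, and Golph3, a Golgi protein gene, was at 105 in the same tumor against 34.1 to 47.2. Both are genes of chromosome 15, where this tumor had runs of neighboring genes that were high together, given under other observations. They are thus not clearly separate cases. Several tumors stood apart in the following genes. Clic5 was at 23.5, 11.6 and 10.4 FPKM in WT-Tag tumors 9, 28 and 10 and at most 2.08 in the other WT-Tag tumors. Gpr125 was at 38.7, 31.0, 24 and 21.7 FPKM in tumors 9, 8, 27 and 11 and at most 18.4 in K27M tumors. Col19a1 was at 22.2 and 12.4 FPKM in tumors 10 and 9. Tfpi had the lowest adjusted p (0.00079): 0.967 to 3.50 FPKM across K27M tumors and 0.664 to 9.28 in WT-Tag tumors, of which tumors 7, 9, 10 and 28 were above 6 FPKM. Ly6h was at 0.511 and 1.61 FPKM in tumors 28 and 9, and its K27M range was 4.28 to 25.1.

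These counts were unstable. With deviations from the group median instead of the mean, 1 gene passed. Leaving out single tumors moved the count by over 1.5 times in 17 of 29 cases. It fell to 2 without K27M tumor 16, 3 without 17, 4 without 4, 6 without 13, 15 or 20, 7 without 12, and 5 without WT-Tag tumor 28. It was 21 without K27M tumor 1 and 29 without 14, and without WT-Tag tumors 8, 26, 7, 10, 27, 29 and 11 it was 20, 26, 27, 28, 30, 30 and 32.

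**Figure D5:**
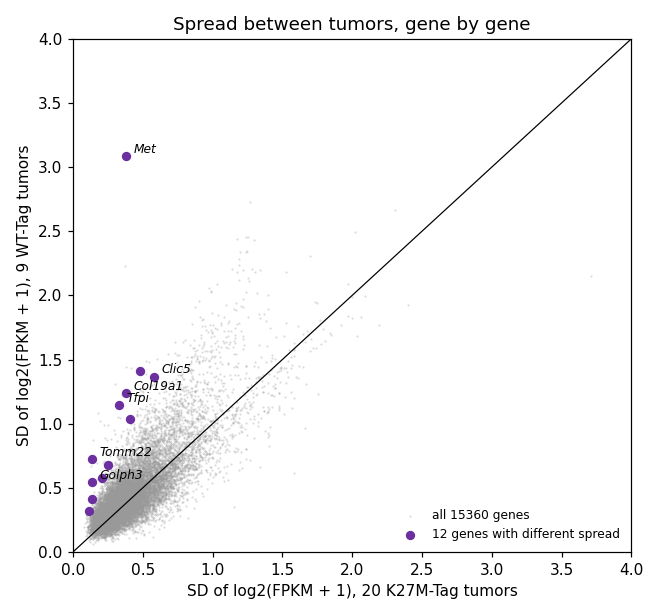
Each point is 1 of 15360 genes, with the SD of log2(FPKM + 1) over 20 K27M-Tag tumors on the x axis and over 9 WT-Tag tumors on the y axis; the line marks equal SD and purple points are the 12 genes whose spread differed. All 12 lie above the line, and Met, at an SD of 3.09 in WT-Tag tumors, lies farthest from it.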

How the data were processed

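RNA-seq libraries of 29 mouse brainstem tumors were analysed, 20 K27M and 9 WT-Tag, grouped by the allele in the titles; 12 neurosphere columns of the same table were not used. Per the labels' protocols, the kit for total RNA kept strand. Per the submitters' processing notes, the tools were CASAVA, TopHat2 and STAR and the build mm9, with no roles stated and with counting tool and annotation not given in the sources used here. Values for 34591 entries were deposited by the authors as FPKM with 3 decimals. The members and lists were chosen with earlier results of these data known.

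The test was limma 3.58.1 (R 4.3.3) with a trended prior variance, fitted to log2(FPKM + 1) of the 29 tumors and no others, 2-sided, with Benjamini-Hochberg adjustment over all genes of a fit and a threshold of 0.05. This scale understates changes of weakly expressed genes. FPKM had to reach 1 in at least 9 tumors in the first comparison (15360 genes) and 0.1 in at least 9 tumors in the wider one (20689 genes). Spread was tested with limma on leverage-corrected absolute deviations. These tests were run on simulated data first. Relative depth came from 1-fragment steps of rare genes: all pairs of tumors fitted within 0.02 on the natural log scale. Relations used Python 3.11.15 and scipy 1.17.1 with 100000 permutations.

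Of 26 lists with 545 genes, 537 were found. The rule for named genes took all called genes (up to 15 per direction), the 3 tested members of each developmental list with the lowest p, the 3 highest members of each cell type list and, for spread, 8 genes per direction, plus H3f3a, H3f3b, Pdgfra, Trp53, Cdkn2a and Nes; of these the text prints those that its results turn on (some genes are not reported here), and genes beyond the rule (Myc, Pdgfb, Golph3, the neighbors of Met and list members given for contrast) were chosen after their values were seen. Names and gene order of unnamed models came from RefSeq on GRCm38.p6, a later build than mm9, with an entry for 82.2% of table entries. Alternatives covered the pseudocount, filters, scaling, tumor weights, labelled sex, depth and composition terms, and leaving out tumors.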

Additional observations from a re-analysis of the deposited data

Results flagged for a closer look

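In the WT-Tag group of 9 tumors, 125 genes and list levels were checked for a single tumor standing apart from the other 8. On the log2 scale, 15 did. Chance alone gives about 1 in 20 for independent items not chosen by their values. These items included genes taken for their spread in the same tumors, such as Met and Tomm22, and list levels beside their own members. That rate is therefore no measure for this set. The group of 20 K27M tumors is too large for this check. None of these values was tested further.

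Tumor 9 stood apart by its high Met, at 1.37e+03 FPKM against 2.08 in the next tumor, and by low Irx2 (1.28 FPKM) and Rarres2 (0.978 FPKM). Tumor 28 stood apart by low Cnpy1 (0.28 FPKM against 5.38 in the next), high Tomm22 (178 FPKM against 70.6) and Des (3.05 FPKM), the lowest lymphocyte level (0.064) and the highest level of fibroblast and meningeal genes (3.33). In tumor 11, Dct (2.28 FPKM against 0.684) and Glycam1 (1.65 FPKM against 0.51) were highest. Tumor 26 was high in Ttr (122 FPKM) and in the level of ependymal and choroid plexus genes (1.62). Rgs5, a pericyte gene, was at 192 FPKM in tumor 27 against 17.8 in the next tumor. Tumor 8 was low in Itpr1 (6.2 FPKM) and tumor 10 in Cldn11 (20.2 FPKM against 92.3 in the next).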

How the results depend on the processing

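No paired analysis was possible because no tumor number occurs in both genotypes. The 13 calls of the first comparison became 48 with tumor weights (all 13 kept), 26 without a filter (7 higher, 19 lower), 8 without WT-Tag tumors 8 and 9, and 0 among tumors labelled female by limma, where 1712 genes had an unadjusted p below 0.05. Quantile normalization gave 16, 7 higher and 9 lower. Leaving out 1 tumor gave 8 (without WT-Tag tumor 27) to 18. The 12 low-expressed calls became 21 with tumor weights, 19 with a pseudocount of 0.1 (all 12 kept in both), 7 with a depth term and 1 among tumors labelled female; leaving out 1 tumor gave 11 to 14. The 12 spread calls became 1 with deviations from the median, and leaving out 1 tumor gave 2 to 32. The spread difference of Met ran from -1.85 (without WT-Tag tumor 11) to 0.0098 (without WT-Tag tumor 9), where it reversed. The median SD of WT-Tag tumors, above that of K27M tumors with all 9, was below it without tumors 8 and 9 (0.366) and without tumors 8, 9 and 28 (0.321; these tumors were chosen after they were seen to stand apart and no K27M tumor was left out, so the fall is fixed by the choice). The causes were not tested beyond the terms named. Of the 25 called genes, no direction reversed under any alternative; 99 single-tumor omissions and 68 other alternatives ended a call, and 626 and 232 did not. Depth limits genes below 1 FPKM, where a value can rest on few fragments; no interval was computed from FPKM.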

Other observations

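Runs of neighboring genes were high or low together in some tumors, found after the values were seen, with gene order from RefSeq on GRCm38.p6. In WT-Tag tumor 28, 26 consecutive measured genes of chromosome 15 from Tst to Pick1 had a median log2 deviation of 1.76 from the median of all tumors, 19 of them at 1 or more. In this run Polr2f was at 817 FPKM against a median of 49.4. A neighboring run from Mir1943 to Syngr1 held Pdgfb, a ligand of the PDGF receptors, at 269 FPKM against 0.550 to 3.36 in K27M tumors. Another run of the same chromosome, from Gdnf to Zfr, held the cell cycle gene Skp2 at 19.3 FPKM against a median of 1.90, and Myc was at 72.0 FPKM in this tumor against a highest value of 26.1 in K27M tumors. The median over all 517 genes of chromosome 15 was nevertheless -0.36 in tumor 28, relative to the other chromosomes. Among K27M tumors, 33 genes of chromosome 4 from Zkscan16 to Cdk5rap2 had a median of 1.72 in tumor 23, and 27 genes of chromosome 1 from Uap1 to Tstd1 had a median of 1.67 in tumor 2, including Atf6 at 57.6 FPKM against a median of 9.23. Low runs recurred in the same segments of K27M tumor 17 and WT-Tag tumors 9 and 28. On chromosome 11, runs around Trim41 and Cnot6 had medians of -1.42, -1.40 and -1.48 in these 3 tumors, whereas the run from Sgcd to Cnot6 was high in K27M tumor 14 (1.71). On chromosome 17, runs in the segment of the H2 genes had medians of -1.21 in K27M tumor 17, -1.2 in WT-Tag tumor 9 and -1.59 in WT-Tag tumor 28. Further low runs lay on chromosome 5, among them that from Oas2 to Trafd1 in K27M tumor 17 (-1.55). On chromosome 18, the run from Fbn2 to Ndst1 held 6 genes at -1 or below in each of these 3 tumors. Its median was 0.54 in K27M tumor 14. The cause of these runs was not tested.

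Medians of whole chromosomes, relative to the rest of the tumor's genes, also varied, and these were the lowest. In K27M tumor 15 the genes of chromosomes 6 and 14 had medians of -0.60 and -0.56, in K27M tumor 22 chromosome 9 had -0.45, in K27M tumor 23 chromosome 14 had -0.45, in K27M tumor 4 chromosome 4 had -0.45, and in WT-Tag tumor 10 chromosome 19 had -0.45. Autosomes with a median of at least 0.25 in either direction numbered 1.00 ± 1.26 per K27M tumor (SD, n = 20) and 2.00 ± 1.58 per WT-Tag tumor (SD, n = 9), a difference that did not pass a two-sided exact permutation test (p = 0.086). None was shifted in 9 of 20 K27M tumors and 1 of 9 WT-Tag tumors. DNA copy number was not analysed here.

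Several called genes with a RefSeq entry were close neighbors that moved the same way: Glycam1 with Ppp1r1a, En2 with Cnpy1, Foxf1a with Fendrr, and Hoxd9 with Hoxd3os1. Between the members of these pairs lay 0, 3, 0 and 2 other RefSeq genes. Hoxd3os1 is 1700109F18Rik and Fendrr is 1110050K14Rik in the deposited table.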
